A study of Mus musculus with 6 samples.

Results

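The genes described here run mitosis: they build the spindle and the kinetochores, hold the spindle checkpoint, and drive entry into, and exit from, cell division. A list of 40 such genes was followed, and each gene was read by its brightest probe set among those that the array annotation assigns to that gene alone. Of the 40, 39 were measured, out of 18193 named genes on the array. Ccnb1, the best known mitotic cyclin, was not analysed here because the annotation table names no probe set for it alone. The arrays came from bone marrow cells of female mice at 6 weeks of age, sorted for the transferrin receptor CD71 and the erythroid antigen Ter119, with 1 array for each mouse. The 3 control mice were Bcl11a +/+. The 3 knockout mice were Bcl11a fl/fl EpoR-Cre+, meaning that both copies of Bcl11a were flanked by Cre sites and that Cre was driven from the erythropoietin receptor gene, which acts in the erythroid lineage. Bcl11a encodes a repressor of embryonic globin genes. Cre and the floxed alleles are named in the labels of the knockout group alone, and what they may add cannot be told apart from the loss of Bcl11a.

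Mitosis begins when Cdk1, bound to A- and B-type cyclins, is switched on by Cdc25 phosphatases and Plk1. Kinetochores assembled on centromeric chromatin then capture spindle microtubules, and the checkpoint holds the anaphase-promoting complex until all chromosomes are attached. Cdc20 then activates that complex, securin and cyclin B are destroyed, and the cell divides. Erythroid precursors are among the most rapidly dividing cells of the bone marrow and divide several times before they lose the nucleus, so these transcripts are abundant in them. Transcription of such genes peaks in G2 and mitosis, and many of their promoters carry CCAAT boxes, bound by NF-Y, and a cell cycle genes homology region (CHR), bound by the DREAM and MMB complexes.

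The promoters are shown because many genes of this list carry these elements. RefSeq promoters of the mouse assembly GRCm38.p6 were found for 32 of the 39 measured genes, and the first listed start of each was searched over the 250 bases before it for TTTGAA (the CHR core), its variant TTTAAA, and CCAAT, on both strands. The 4 sequences below belong to the genes with the lowest p-values whose promoters hold both TTTGAA and CCAAT. Each is written 5′ to 3′ on the strand of the gene and ends at the base before the start. Capitals mark TTTGAA and CCAAT, or their reverse complements TTCAAA and ATTGG.
Ect2: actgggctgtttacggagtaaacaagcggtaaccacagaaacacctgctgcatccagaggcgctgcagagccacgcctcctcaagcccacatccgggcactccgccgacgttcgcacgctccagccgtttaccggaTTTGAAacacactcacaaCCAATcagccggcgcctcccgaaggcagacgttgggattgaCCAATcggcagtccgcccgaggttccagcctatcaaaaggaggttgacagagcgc
Ube2c: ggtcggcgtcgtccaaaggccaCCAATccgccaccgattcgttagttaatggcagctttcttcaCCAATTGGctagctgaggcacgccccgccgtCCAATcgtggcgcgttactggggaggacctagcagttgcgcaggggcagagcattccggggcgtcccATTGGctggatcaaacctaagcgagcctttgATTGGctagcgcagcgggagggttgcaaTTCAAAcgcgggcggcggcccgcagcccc
Ccnb2: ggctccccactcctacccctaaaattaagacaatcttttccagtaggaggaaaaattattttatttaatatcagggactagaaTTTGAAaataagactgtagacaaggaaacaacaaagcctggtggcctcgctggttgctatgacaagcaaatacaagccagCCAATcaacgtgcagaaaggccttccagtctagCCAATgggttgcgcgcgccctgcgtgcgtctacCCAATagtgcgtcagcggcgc
Mki67: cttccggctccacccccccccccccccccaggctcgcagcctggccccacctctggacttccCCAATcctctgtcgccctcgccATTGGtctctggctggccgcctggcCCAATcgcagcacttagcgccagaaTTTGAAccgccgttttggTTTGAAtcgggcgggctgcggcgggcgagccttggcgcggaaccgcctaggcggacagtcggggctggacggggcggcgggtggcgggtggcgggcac
The Ect2 sequence lies at chr3:27153879-27154128 (minus strand), that of Ube2c at chr2:164769679-164769928 (plus strand), that of Ccnb2 at chr9:70421555-70421804 (minus strand) and that of Mki67 at chr7:135716380-135716629 (minus strand). In Ube2c 6 CCAAT matches were counted on the 2 strands, of which 1 pair overlaps. Ccnb2 has 3 CCAAT boxes in the same orientation, which begin 87, 54 and 21 bases before the start. CCAAT occurred in 24 of the 32 member promoters (75%), against 34.5% of the 27025 promoters of the same length. At least 2 copies were present in 16 (50%), against 10.5%. TTTGAA was present in 12 (37.5%), against 16.3%, and TTTAAA in 5 (15.6%), against 12.1%. Both CCAAT and TTTGAA were found in 11 (34.4%), against 5.73%. The 11 genes with both elements had a median log2 change of 0.21 in the knockout (range 0.07 to 0.47), and the other 21 one of 0.35 (range 0.05 to 0.53). These matches describe letters in a fixed window and are not evidence of binding.

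The mitotic genes stood slightly higher in the knockout mice as a group. The median log2 change of the 39 genes was 0.33, a ratio of 1.25, on the scale of log2(intensity + 16), and the median over all 18193 genes was -0.001. All 39 changes were above 0, while 49.8% of all genes were. Among genes in the brightest 10% of probe sets, which hold 31 of the 39, it was 59.4%. They ran from 0.05 for Ndc80 to 0.56 for Tpx2, with the middle of the list between 0.23 (lower quartile) and 0.37 (upper quartile). In 30 of the 39, all 3 knockout mice were above all 3 control mice, which held for 12.3% of all genes and 10.6% of all probe sets. The share was 29.2% of genes in the brightest 10% of probe sets. In none were all knockout mice below all controls, which held for 9.23% of genes and 8.91% of probe sets. With 3 against 3 mice such a gene has a two-sided exact permutation p of 0.1, the smallest this design allows. The arrays measured RNA of whole sorted samples, so more dividing cells and more RNA per dividing cell cannot be told apart.

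None of the 39 genes passed the test across all probe sets (limma with Benjamini-Hochberg adjustment, lowest adjusted p = 0.163), while 63 of 45037 probe sets (0.14%; 0.209% of genes) did so upward and 3 (0.00666%; 0.0055% of genes) downward. At an unadjusted p under 0.05 the count was 25 of 39, all upward, against 8.18% of all genes and 7.21% of all probe sets in that direction. With an intensity trend and robust moderation of the variances, 18 of the 39 passed, all upward, against 3.61% of all genes and 2.68% of all probe sets upward and 0.605% of genes and 0.531% of probe sets downward. The 39 genes were brighter than most (median percentile 95.9), and the share passing among genes of like brightness was not counted.

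**Figure D1:**
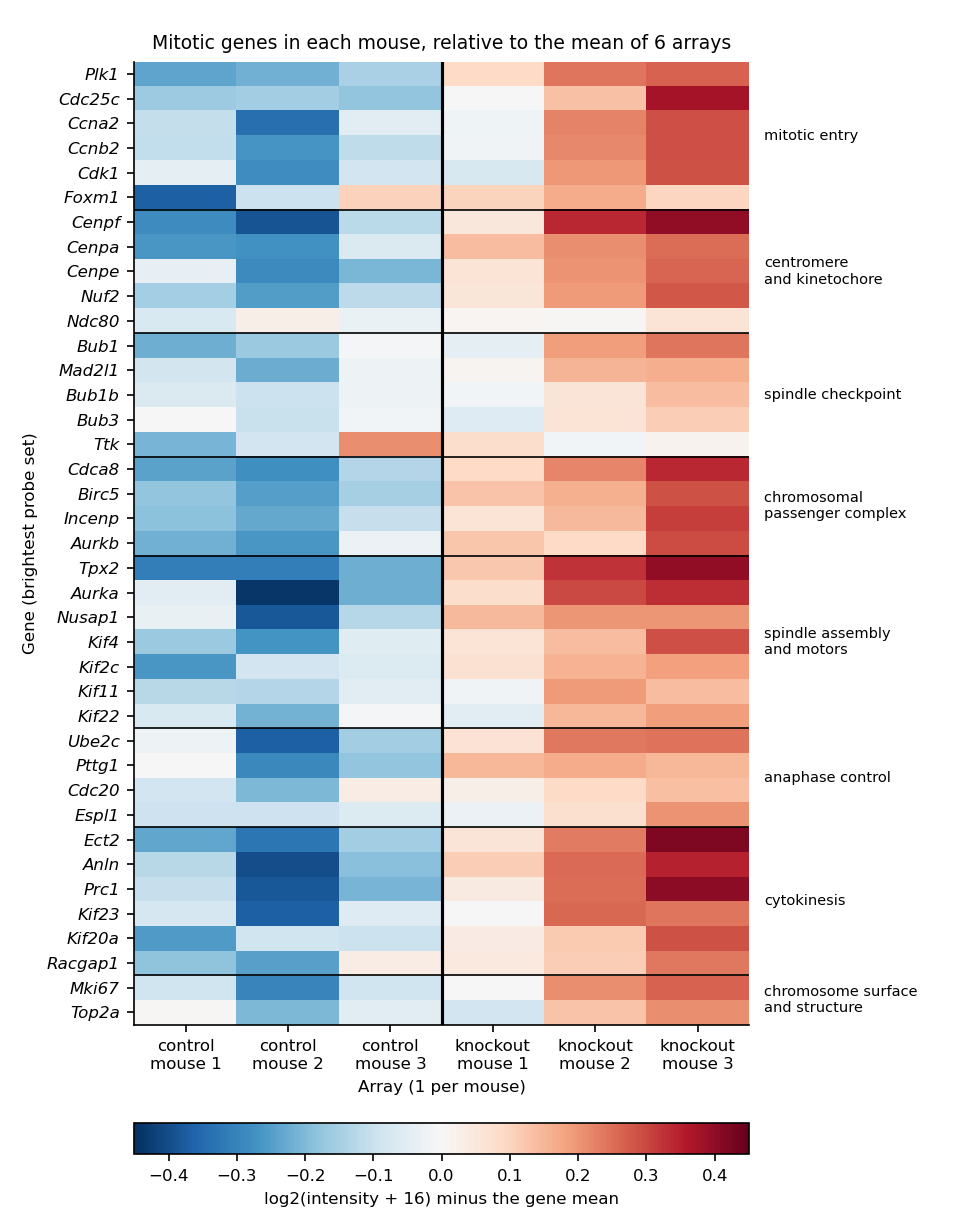
Log2(intensity + 16) of each of the 39 mitotic genes (rows, grouped by role) in each of the 6 mice (columns), minus the mean of that gene over the 6 arrays. Blue cells, below the gene mean, fill most of the 3 control columns and red cells most of the knockout columns, with the deepest colours in control mouse 2 and knockout mouse 3.

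Across the array as a whole, the arrays were alike: their median intensity lay between 67.5 and 70.9, and log2 values of any 2 arrays correlated at r = 0.980 to 0.986 across probe sets. Of the 7 probe sets of Bcl11a, none passed the test. In 4 of them every knockout mouse was below every control mouse, in 2 every knockout mouse was above, and in 1 the groups overlapped. The brightest had 1475, 1553 and 1450 in the control mice and 1286, 1419 and 1190 in the knockout mice (log2 change -0.20 ± 0.11, SE, limma adjusted p = 0.502). The labels do not say which part of the gene is deleted, and the probe sets therefore do not check the genotypes. Embryonic Hbb-y had 67.4 to 80.9 in the controls and 19266 to 20104 in the knockouts, with no overlap. Of the 17 markers listed for the sorted cells 14 were measured, and Tfrc, which encodes CD71, had intensities of 12855 to 15720 in the controls and 16867 to 19472 in the knockouts.

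The genes of mitotic entry were higher in the knockout by 0.24 to 0.40 on the log2 scale, and 4 of the 6 measured did not overlap between the groups. Over all genes, 12.3% were higher in every knockout mouse, and 29.2% of those in the brightest 10% of probe sets were. Plk1, a kinase that acts from mitotic entry to cytokinesis, had intensities of 1495, 1519 and 1595 in the controls and 1880, 2090 and 2128 in the knockouts. All 3 knockout values were higher, with a log2 change of 0.40 ± 0.10 (SE, limma adjusted p = 0.228). Cdk1, the kinase that starts mitosis, had 7516, 6395 and 7309 in the controls and 7375, 8887 and 9464 in the knockouts. Here knockout mouse 1 lay within the control range, and the change was 0.27 with a 95% interval from -0.05 to 0.60. Its partners Ccna2, which acts from S phase to early mitosis, and Ccnb2, a B-type cyclin, had log2 changes of 0.33 each, and in both every knockout mouse was above every control mouse. Ccnb2 went from 6771 ± 410.2 to 8518 ± 914 (mean intensity ± SD, n = 3). Cdc25c, a phosphatase that activates Cdk1, had a change of 0.34 in its brighter probe set, where knockout mouse 3 (522) stood above the other knockouts (399 and 439) and the controls were within 351 to 357.

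Foxm1, a transcription factor for many of these genes, did not show a clear difference. Its brightest probe set had 235, 286 and 331 in the controls and 330.3, 347 and 329.5 in the knockouts. The groups overlapped through control mouse 3, and the log2 change of 0.24 had a 95% interval from -0.10 to 0.58. Its other 3 probe sets had changes of 0.03, -0.05 and -0.21, the last at mean intensities of only 15.69 in the controls and 13.04 in the knockouts.

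Among genes of the centromere and kinetochore, 4 of 5 were above the controls in every knockout mouse, against 12.3% of all genes. Cenpf, a large kinetochore protein that accumulates in G2, had 2431, 2256 and 2717 in the controls and 3066, 3748 and 3908 in the knockouts, with no overlap between groups. Its log2 change was 0.53 ± 0.14 (SE, limma adjusted p = 0.232). Its other probe sets had changes of 0.42 without overlap and 0.22 with overlap. Cenpa, the histone H3 variant that marks the centromere, went from 3731 ± 311 to 4909 ± 193.5 (SD, n = 3), a change of 0.40. Its other 2 probe sets had changes of 0.38 and 0.30, also with no overlap. The one at 0.38 was very dim, with group means of only 16.21 (control) and 25.73 (knockout). Cenpe, a kinetochore motor, had a change of 0.35, and so did Nuf2, a subunit of the NDC80 complex that grips microtubules. Ndc80, which gives that complex its name and is its largest subunit, had the smallest change of the list. Its intensities were 739.7, 791 and 760.0 in the controls and 781, 780.2 and 810.3 in the knockouts. The groups overlapped, and the change of 0.05 had a 95% interval from -0.17 to 0.27. Whether Nuf2 and Ndc80 differ from each other was not tested.

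The spindle checkpoint genes had the lowest median of the 8 roles, 0.12, and in 2 of 5 every knockout mouse was higher (12.3% of all genes). Bub1, a kinase that recruits the checkpoint to kinetochores, had 1742, 1806 and 2025 in the controls and 1976, 2315 and 2402 in the knockouts. Control mouse 3 lay above knockout mouse 1, and the change was 0.26 ± 0.12 (SE, limma adjusted p = 0.452). Mad2l1, which inhibits Cdc20, had a change of 0.22, and Bub1b, the BubR1 subunit of the mitotic checkpoint complex, one of 0.12. Both stood higher in every knockout mouse, though for Bub1b narrowly, with 1722 in control mouse 3 and 1738 in knockout mouse 1. In the other 2 probe sets of Bub1b, at 0.11 and 0.17, the groups overlapped. Bub3, which binds Bub1 and BubR1, had 5473, 5108 and 5430 in the controls against 5255, 5711 and 5913 in the knockouts, a change of 0.07 (95% interval -0.17 to 0.32). Ttk, the kinase Mps1 that starts checkpoint signalling, had 634, 690.3 and 852 in the controls and 778, 729 and 743 in the knockouts. Control mouse 3 was the highest of all 6, and the change was 0.06 (95% interval -0.26 to 0.38). The direction of these last 2 genes was not stable: Ttk had a change of -0.032 without control mouse 1 and Bub3 one of -0.046 after quantile normalization.

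All 4 genes of the chromosomal passenger complex, which corrects faulty attachments and later guides cytokinesis, were higher in every knockout mouse, by 0.34 to 0.43. Of all genes, 12.3% were higher in every knockout mouse. Cdca8, or borealin, had 4138, 4043 and 4464 in the controls and 5216, 5712 and 6199 in the knockouts, with a wide gap between the groups. Its log2 change was 0.43 ± 0.11 (SE, limma adjusted p = 0.228), and its other 2 probe sets had changes of 0.40 and 0.39 without overlap. Birc5, or survivin, which links the complex to phosphorylated histone H3, went from 6613 ± 236 to 8634 ± 507 (SD, n = 3), a change of 0.38. Incenp, the scaffold, had a change of 0.35 and Aurkb, the kinase of the complex, one of 0.34. Of the 5 probe sets of Incenp, all were above 0 and 4 did not overlap.

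**Figure D2:**
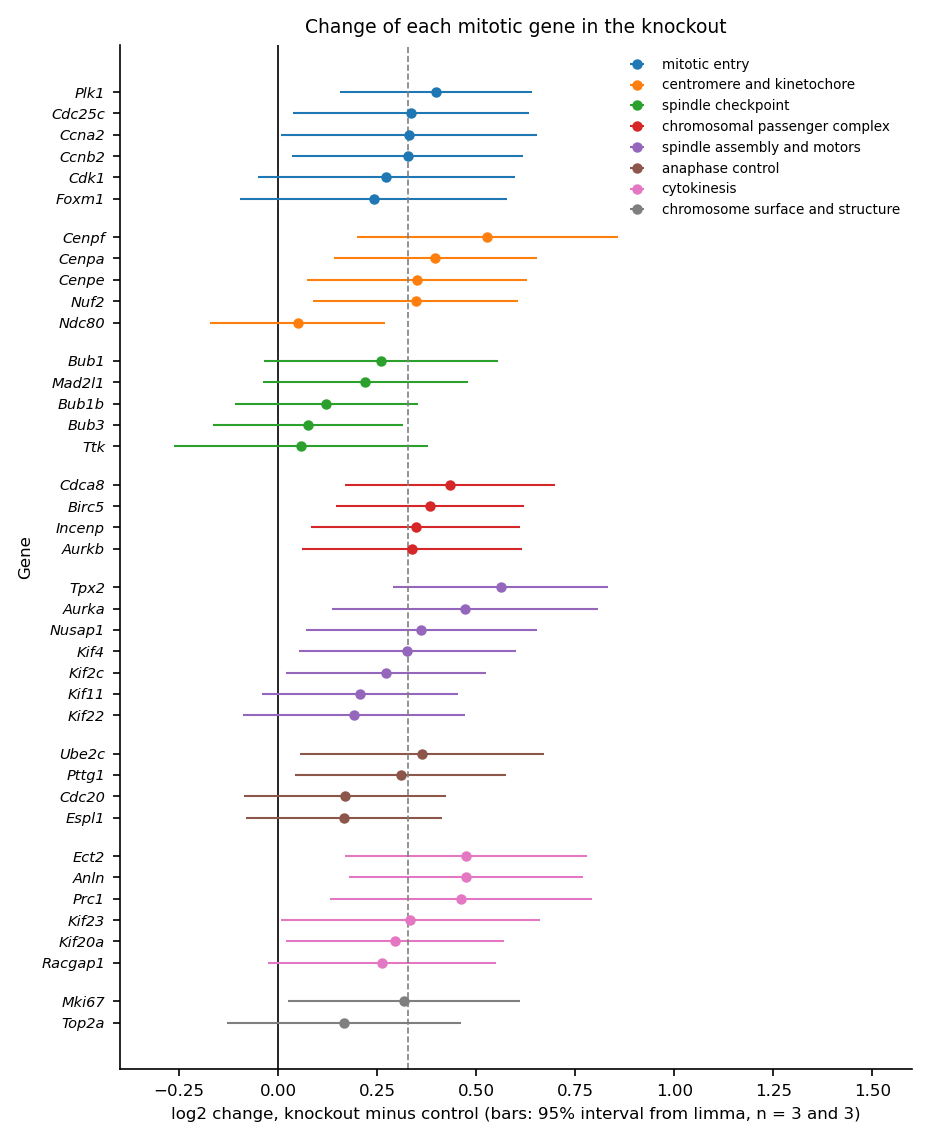
Log2 change (knockout minus control) of each mitotic gene with its 95% interval from limma, coloured by role. The broken line marks the median of 0.33; all 39 points are above 0, and 25 intervals lie wholly above 0.

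Among the spindle assembly factors and motors, 6 of 7 were higher in every knockout mouse, against 12.3% of all genes. Tpx2, which nucleates microtubules near chromosomes and activates Aurora A, had the largest change of the list and the lowest p. Its intensities were 1702, 1704 and 1814 in the controls and 2301, 2657 and 2793 in the knockouts. The change was 0.56 ± 0.11 (SE, limma adjusted p = 0.163, and adjusted p = 0.00198 to 0.431 over the alternatives). The other 3 probe sets of Tpx2 had smaller changes, of 0.15, 0.26 and 0.11, and the mean over all 4 gave 0.27. Aurka, the Aurora A kinase of the spindle poles, had 2207, 1685 and 1958 in the controls and 2417, 2808 and 2879 in the knockouts, a change of 0.47 ± 0.14. Control mouse 2 was the lowest. Of the motors, Kif4, a chromosome-bound kinesin, had a change of 0.33, Kif2c, which depolymerises microtubules at centromeres, one of 0.27, Kif11, which pushes the spindle poles apart, one of 0.21, and Kif22, which moves chromosome arms, one of 0.19 with overlapping groups. Other probe sets of Kif2c had changes from -0.11 to 0.26. Nusap1, a microtubule-bundling protein, had a change of 0.36.

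For the control of anaphase, Ube2c, the ubiquitin-conjugating enzyme of the anaphase-promoting complex, had 13005, 10221 and 11855 in the controls and 13798, 15552 and 15643 in the knockouts. The groups did not overlap, although control mouse 1 came close to knockout mouse 1, and the change was 0.36 ± 0.13 (SE, limma adjusted p = 0.339). Pttg1, or securin, the inhibitor of separase, had a change of 0.31, and its other 2 probe sets had changes of 0.47 and 0.45 without overlap. Separase itself, Espl1, had a change of 0.17, and so had Cdc20, the activator of the complex, whose groups overlapped.

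The cytokinesis genes had the highest median of the 8 roles, 0.40, and in all 6 every knockout mouse was above every control mouse. That held for 12.3% of all genes and 29.2% of those in the brightest 10% of probe sets. A difference between roles was not tested. Ect2, the exchange factor that activates RhoA at the division plane and whose promoter is shown above, had 1703, 1597 and 1798 in the controls and 2089, 2357 and 2687 in the knockouts. Its log2 change was 0.47 ± 0.13 (SE, limma adjusted p = 0.240). Anln, or anillin, the scaffold of the contractile ring, had 2652, 2186 and 2537 against 3123, 3449 and 3679, a change of 0.47 ± 0.12. Both genes were highest in knockout mouse 3 and lowest in control mouse 2. Prc1, which bundles the central spindle, had a change of 0.46. Kif23 and Racgap1, the 2 parts of centralspindlin, had changes of 0.33 and 0.26, and Kif20a, a motor of the central spindle, one of 0.29. Further probe sets of Kif23 (0.13) and Racgap1 (0.14) overlapped between the groups. Others of Kif23 (0.48) and Racgap1 (0.37, at very low intensity) did not.

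Mki67, the proliferation marker that coats mitotic chromosomes, had 14420, 12478 and 14408 in the controls and 15354, 17722 and 18438 in the knockouts. All knockout mice were higher, by 0.32 ± 0.12 (SE, limma adjusted p = 0.369). Top2a, the topoisomerase that untangles sister chromatids, had 7921, 6852 and 7607 against 7424, 8616 and 9123, and knockout mouse 1 lay within the control range (change 0.17, 95% interval -0.13 to 0.46).

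Other probe sets of the same genes were mostly higher in the knockouts too. For 26 of the 39 genes there were 49 further probe sets, read from the same RNA. Their median change was 0.26. Of these, 43 were above 0. In 24 all knockout mice were above all controls and in 0 below, against 10.6% and 8.91% of all probe sets. The 6 at or below 0 belonged to Foxm1, Cdc20, Kif2c, Top2a and Bub1, with the lowest at -0.21.

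The mice of a group were not alike in these genes. The mean over the 39 genes, each centred on its own mean over the 6 arrays, was -0.14, -0.24 and -0.08 in control mice 1, 2 and 3 and 0.04, 0.17 and 0.25 in knockout mice 1, 2 and 3. No knockout mouse was below a control mouse, but knockout mouse 1 was nearer to control mouse 3 than to knockout mouse 3. Control mouse 2 gave the lowest value of 30 genes and knockout mouse 3 the highest of 33. Without control mouse 2 the median change was 0.27, without knockout mouse 3 it was 0.26, and without knockout mouse 1 it was 0.38. In all 8 roles the group mean was higher in the knockouts, by between 0.15 for the checkpoint and 0.38 for cytokinesis.

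The mitotic genes are among the brighter genes of these arrays, at percentiles 73.8 to 99.6 of all probe sets, with a median of 95.9. Above percentile 50, the share of genes higher in every knockout mouse rose with brightness in each step of 10. It was 7.1% between percentiles 50 and 60 and 29.2% in the brightest 10% of probe sets. Between percentiles 50 and 80 the median change of all genes lay between -0.04 and -0.02 in every step of 10, and between percentiles 80 and 90 it was 0.003, with 20.3% of genes higher in every knockout mouse. Among the 2810 genes in the brightest 10% of probe sets, 29.2% had every knockout mouse above every control mouse and the median change was 0.04. The 31 members in that range had a median of 0.34, and 25 of them did not overlap. After quantile normalization the median of all members was 0.23 and 25 genes did not overlap, and after cyclic loess normalization it was 0.25 (25 genes).

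**Figure D3:**
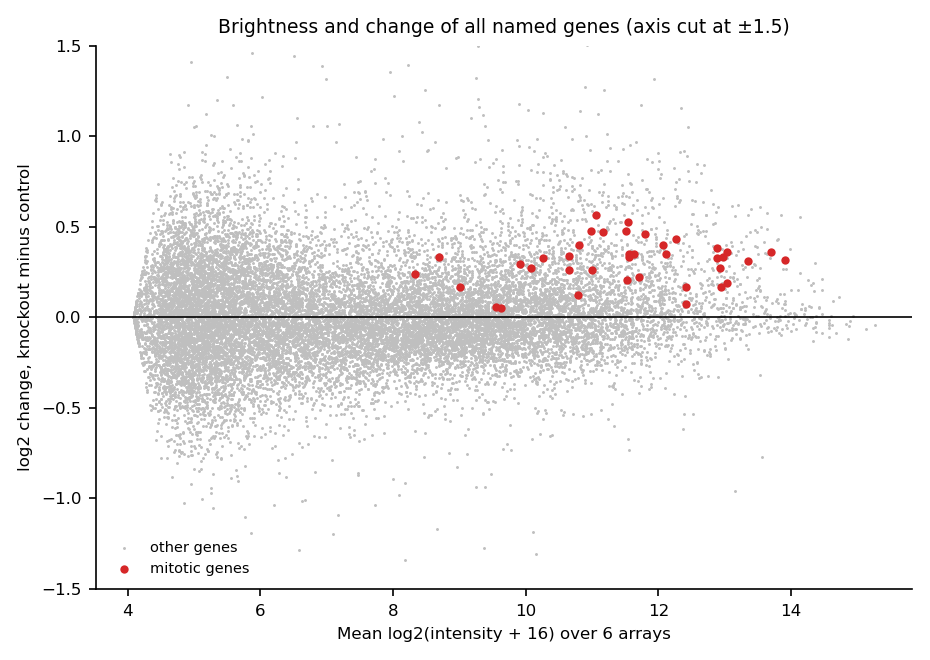
Mean log2(intensity + 16) over the 6 arrays (horizontal) against the log2 change, knockout minus control (vertical), for the 39 mitotic genes in red and all other named genes in grey; 29 genes lie outside the vertical range. The red points sit on the right of the plot and above the line at 0.

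Other genes of cell division, from lists that hold none of the 39, were described by the same counts. Of 150 genes in 7 such lists, 112 had log2 changes above 0 and 38 below, the median was 0.16, and 67 had every knockout mouse above every control mouse against 8 the other way (12.3% and 9.23% of all genes). None passed the test in either direction (limma, lowest adjusted p = 0.0882). An unadjusted limma p under 0.05 was found for 47, counting both directions, and Septin6, at -0.32, was among them. Over all genes, 8.18% had such a p in the upward direction alone. With the intensity trend and robust moderation, 28 passed upward and 0 downward (3.61% and 0.605% of all genes).

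The lists of spindle assembly and centrosome (34 genes, median 0.22), kinetochore (28 genes, median 0.23) and further checkpoint factors (11 genes, median 0.28) had the higher medians. Kif2a, a microtubule depolymerase of the spindle poles, had 1137 in the controls and 1989 in the knockouts, a log2 change of 0.79 ± 0.11 (SE, limma adjusted p = 0.0882), the lowest p of all these genes. Kif18a, a motor that aligns chromosomes, had a change of 0.67, while Haus1, of the augmin complex, had -0.22 and Kif14 -0.26. Mad2l1bp, or p31comet, which silences the checkpoint, had a change of 0.76. Its 3 control mice lay between 880.4 and 1121 and its 3 knockout mice between 1507 and 1845. Zw10, which recruits dynein to kinetochores, had a change of 0.30. Ska1, a microtubule-binding kinetochore subunit, had one of 0.53 and Mis12, a linker subunit, one of 0.41; on the other side stood Cenps at -0.31 and Cenpm at -0.10.

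Condensin and cohesin genes (20 genes) had a median of 0.18. Wapl, which releases cohesin from chromosomes, had 2812 ± 230.5 and 4604 ± 218 (SD, n = 3), a change of 0.71 ± 0.11 (SE, limma adjusted p = 0.0975), and Esco2, which acetylates cohesin in S phase, one of 0.48. Pds5b had -0.12 and Nipbl -0.05.

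Lists of general machinery lay near the centre of all genes. The anaphase-promoting complex (17 genes) had a median of 0.08, with Ube2s at 0.45 and Fzr1, the activator Cdh1, at 0.53, against Anapc4 at -0.14 and Anapc2 at -0.11. Entry and exit kinases and phosphatases (20 genes) had a median of 0.06, with Ensa at 0.39 and Cks2 at 0.29 against Lmnb2 at -0.20 and Cdc25b at -0.27. The further cytokinesis list (20 genes), which holds septins, ESCRT proteins and myosins used outside mitosis, had a median of 0.02. In it Cit, the citron kinase of the midbody, had 0.67 and Myh10 0.45, against Septin6 at -0.32 and Septin9 at -0.24.

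The factors that act on G2/M promoters such as those shown above (17 genes) had a median of 0.08 and a range from -0.14 to 0.27. Lin54, the CHR-binding subunit of DREAM and MMB, had a change of 0.25 and the pocket protein Rbl1 one of 0.20. Lin37 was at -0.14 and E2f5 at -0.03. None passed the test with the intensity trend either, which 3.61% of all genes did upward and 0.605% downward. Of the 17, only Lin54 had an unadjusted p under 0.05 (limma), against 8.18% of all genes in the upward direction.

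Genes of S phase were taken from a list of DNA replication. Of 41 measured replication genes, 33 were above 0 with a median of 0.13, and in 11 every knockout mouse was above every control mouse, against 1 the other way. Over all genes these shares were 12.3% and 9.23%, and among genes in the brightest 10% of probe sets 29.2% were higher in every knockout mouse. Among replication genes above 0 the lowest p-values belonged to Ccne2 (0.62) and Ccne1 (0.46), cyclins that start S phase, and among those below 0 to Rfc3 (-0.22) and Pold1 (-0.20). The mean of the list was -0.08, -0.08 and -0.04 in the control mice and -0.05, 0.06 and 0.19 in the knockout mice, so that knockout mouse 1 lay within the controls. The difference between the replication and the mitotic genes was not tested.

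**Figure D4:**
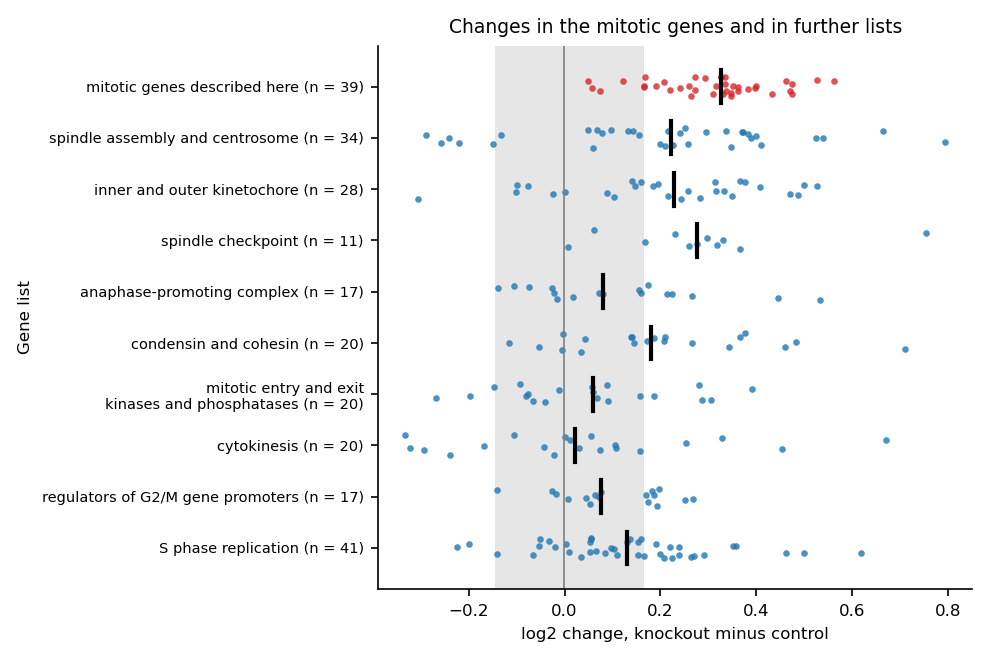
Log2 change (knockout minus control) of each gene in the 39 mitotic genes (red) and in 9 further lists (blue), with the median of each list as a black bar. The grey band spans all named genes from the lower to the upper quartile and the grey line their median; the median of the red points, 0.33, lies outside the band, and those of the anaphase-promoting complex (0.08) and the further cytokinesis list (0.02) lie inside it.

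Markers of maturation and of other cells differed between the same groups of mice. Of 11 measured genes of late erythroid maturation, 11 had changes above 0 (median 0.57), and their mean was -0.12, -0.58 and -0.26 in the controls and 0.28, 0.30 and 0.38 in the knockouts. Control mouse 2 was the lowest here too, and the summed intensity was 73696 to 96723 in the controls and 115580 to 121901 in the knockouts. Add2 was the 1 gene of that list to pass the test (limma adjusted p = 0.0407). With the intensity trend and robust moderation 7 of the 11 passed upward, against 3.61% of all genes. Of the 14 markers of erythroid precursors, 12 were above 0, and Epor (-0.14) and Alas2 (-0.06) were below. Their median was 0.51, and 10 had every knockout mouse above every control mouse (12.3% of all genes). With the intensity trend and robust moderation 6 passed upward (3.61% of all genes). One of the 12, Hba-a1, was read by a probe set with intensities of only 9.52 to 21.83, so its sign is not informative. The sums of the 14 were 93639 to 115534 in control and 129086 to 138644 in knockout mice.

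Markers of several other cell types had lower levels in the knockouts, though none passed the test (limma). With the intensity trend and robust moderation, 3 pre-B, 1 basophil and mast cell and 1 earlier stem and progenitor marker passed downward. Over all genes 0.605% did so. In the macrophage list 1 passed upward, against 3.61% of all genes. Of 11 measured pre-B cell markers 11 had changes below 0 (median -0.42), and their summed intensity was 19096 to 22742 in the controls and 13415 to 18205 in the knockouts, lowest in knockout mouse 3 by their mean (-0.50). Igll1, of the surrogate light chain, had a change of -1.31 (limma adjusted p = 0.136). Of 12 neutrophil markers 11 were below 0 (median -0.09), with sums of 225833 to 229058 and 208763 to 216861. Neutrophil genes were among the brightest on these arrays, with S100a8 at percentile 100 and Ngp at 99.99 of all probe sets. How much of the RNA came from each cell type was not measured. Of 7 basophil and mast cell markers 7 were below 0 (median -0.27), with sums of 7121 to 7582 and 4957 to 6604. Earlier stem and progenitor genes had a median of -0.29 with 9 of 10 below 0, but their sums overlapped (23912 to 26320 and 22158 to 26244). Lmo2, the brightest of that list, was the 1 gene above 0 (0.30). The macrophage (median -0.05, sums of 10683 to 11929 and 11526 to 12766), megakaryocyte (median 0.12, sums of 1812 to 2322 and 1655 to 2678) and T and NK cell markers (median 0.16, sums of 2696 to 3225 and 2668 to 3191) also had overlapping sums. No marker had an intensity of 0 on any array. The part of these differences in the levels of the mitotic genes was not tested.

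**Figure D5:**
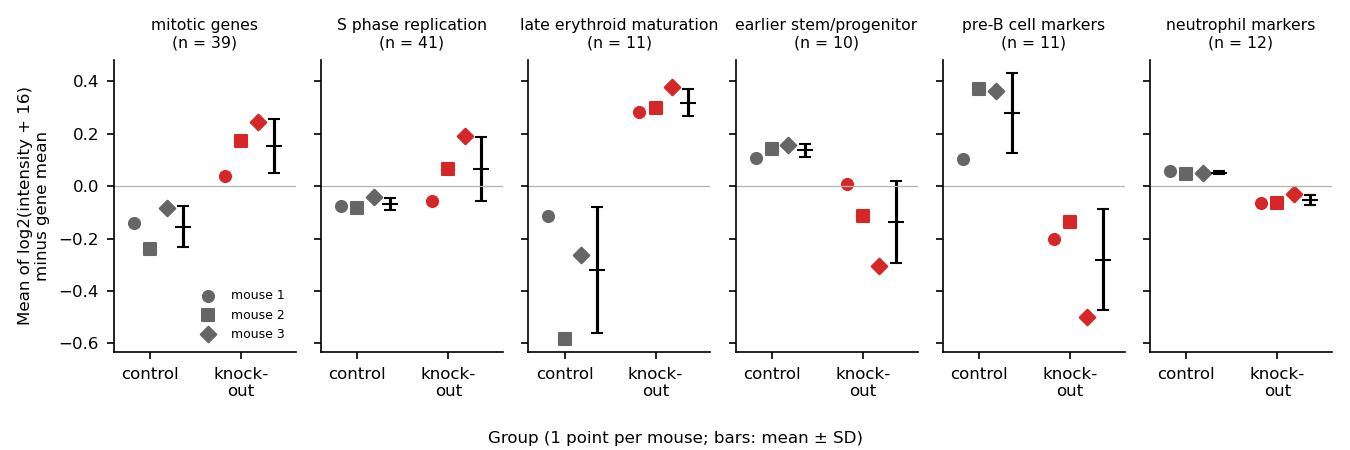
Mean of log2(intensity + 16), each gene centred on its mean over the 6 arrays, for the 39 mitotic genes and 5 other lists; 1 point per mouse (circle, square and diamond for mice 1, 2 and 3) with the mean and SD of each group of 3. The mitotic genes run from -0.24 in control mouse 2 to 0.25 in knockout mouse 3, while the pre-B cell list runs from 0.37 in control mouse 2 to -0.50 in knockout mouse 3.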

How the data were processed

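The authors deposited 1 table of probe set intensity values on a linear scale, with 45037 probe sets and 6 arrays. Per the labels' protocols, RNA was extracted with Trizol and labelled by the Affymetrix procedure. How probe sets were summarised and arrays brought to a common level was not given in those labels. No detection calls were used, and the number of mice (3 and 3) limits the precision. Each sample is labelled as a separate mouse, and p-values measure the spread between these mice. Values were used as log2(intensity + 16), which makes changes of dim probe sets look smaller. Knockout and control were compared two-sided over the whole table by lmFit and eBayes (limma 3.58.1, R 4.3.3), with Benjamini-Hochberg adjustment and a threshold of 0.05. The prior degrees of freedom were 2.42. Figures were drawn with Python 3.11.15. Genes were named from the platform's annotation (34945 probe sets with 1 symbol, 932 with several and 9160 with none) and updated through Entrez IDs. A gene stands for its brightest single-symbol probe set. The genes whose values are given for every mouse are the member with the lowest p of each role, Mki67, Cdk1 and Plk1, and the 5 largest and 3 smallest changes; in other lists up to 2 genes in each direction by p were named. Foxm1, Top2a and Cdc25c were added after their values were seen. The members and lists were chosen with earlier results of these data known, and are described by counts and medians with no test of a list. The fit was tested on simulated data with larger changes than those of the members. The alternatives were quantile, median and cyclic loess normalization, pseudocounts of 1 and 64, the brightest 50% of probe sets, moderation that was robust and followed an intensity trend, weights for arrays, the mean of a gene's probe sets, the replicate number as a block, and leaving out each mouse.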

Additional observations from a re-analysis of the deposited data

How the results depend on the processing

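The median change of the members stayed above 0 under all 16 alternatives. It was 0.23 after quantile normalization and 0.26 to 0.38 when each mouse was left out in turn. The number of members with every knockout mouse above every control mouse was 25 to 33 over the other alternatives and 30 to 36 when mice were left out. Over all probe sets that share was 10.6% in the main analysis, 9.58% after quantile normalization and 14.37% to 16.01% when a mouse was left out, so the latter counts are no sign of stability. No member passed in the main analysis or without any 1 mouse (0 to 0); 18 passed with an intensity trend and robust moderation, 2 (Tpx2 and Plk1) in the brightest 50% of probe sets and 1 (Tpx2) with a pseudocount of 64. Of the 39 members, 37 kept their direction throughout. Bub3 turned to -0.046 after quantile and -0.009 after cyclic loess normalization, which was chosen after the data were seen, and Ttk to -0.011 with array weights and -0.032 without control mouse 1 (up to 0.177 without control mouse 3); the cause was not tested. Over all probe sets, 66 passed in the main analysis, 1445 with the intensity trend and robust moderation, 853 in the brightest 50%, 558 with a pseudocount of 64, 38 with one of 1, 27 to 41 without 1 mouse, and 14 with the replicate block. Deviations of same-numbered mice from their group means, over all probe sets, correlated at r = -0.035, -0.014 and -0.040. With 3 mice in each group and many dim probe sets, such values cannot tell whether the mice were paired. The replicate block left the members' median at 0.33 and called 0 of them.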
